A study of Mus musculus with 10 samples.

Results

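The miR-15/16 family, in its wider sense with miR-195 and miR-497, comprises 6 mouse miRNA hairpins, Mir15a, Mir15b, Mir16-1, Mir16-2, Mir195a and Mir497, which were taken by name from the 1174 hairpins of the GENCODE vM21 annotation. Each hairpin can give a mature RNA from its 5p arm and one from its 3p arm. Since the 5p arms of Mir16-1 and Mir16-2 are identical, their reads were merged into a single miR-16-5p, and the 12 nominal arms became 11. Of these, 9 had reads in at least 1 library and all 9 passed the filter on low counts, while miR-15a-3p and miR-497a-3p had no read in any library.

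The libraries are of small RNA from male (XY) mouse embryoid bodies, taken apart and sorted on Day 6 of differentiation. Mouse Primordial Germ Cell-Like Cells (mPGCLCs), the in vitro counterparts of the embryonic precursors of sperm and eggs, were collected from the E14 (129/Ola) and BG5 (C57BL/6J/DBA/129) embryonic stem cell lines. The surrounding embryoid body cells, termed non-PGCLC, were collected from E14, BG5 and SGET (B6CBA/129), with 2 libraries in each of the 5 groups. Per the study's text, mPGCLCs of E14, which carries no reporter, were sorted as Ssea1-positive and Cd61-positive, and those of BG5, which carries Blimp1-GFP, as Ssea1-positive and Blimp1-GFP-positive, whereas SGET carries Stella-GFP and Esg1-tdTomato, and the labels give the Stella-GFP gate for all lines. Non-PGCLC cells are therefore a mixture defined by lying outside the germ cell gate. The lines differ in strain, reporter and gate at once, so these cannot be told apart in a comparison of lines. SGET mPGCLCs were not analysed here, and nothing in the labels says whether the libraries of a group came from separate cultures, so p-values measure only the spread between these samples, which may be technical.

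Mature miRNAs are loaded into Argonaute proteins and repress messenger RNAs that pair with their seed, the bases near the 5′ end of the miRNA. The miR-15/16 family is best known as a brake on the G1 to S step of the cell cycle, with cyclins D and E, Cdk6 and Cdc25a among the well studied targets, and as a repressor of the survival factor Bcl2. Embryonic stem cells divide rapidly with a short G1 phase, and in them the miR-290 and miR-302 clusters promote that step.

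The 5 distinct 5p sequences are shown because all of them carry the same seed and differ mainly toward the 3′ end. They are the RefSeq mature sequences (GRCm38.p6), written 5′ to 3′, with capitals marking the seed, bases 2 to 8.
miR-16-5p: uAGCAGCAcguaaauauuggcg
miR-15a-5p: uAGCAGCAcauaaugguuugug
miR-15b-5p: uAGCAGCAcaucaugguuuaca
miR-195a-5p: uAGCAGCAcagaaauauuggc
miR-497a-5p: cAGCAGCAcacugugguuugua
Aligned from the 5′ end without gaps, miR-15a-5p and miR-15b-5p were identical at 18 of 22 bases, and miR-16-5p and miR-195a-5p at 19 of 21. The least alike pair was miR-16-5p and miR-497a-5p, with 11 of 22 identical bases.

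The 3p arms do not share that seed, and the pair from the Mir16 hairpins is shown because it is what tells Mir16-1 from Mir16-2 in these data.
miR-16-1-3p: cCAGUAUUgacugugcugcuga
miR-16-2-3p: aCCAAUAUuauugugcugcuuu
miR-15b-3p: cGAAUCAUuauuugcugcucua
miR-195a-3p: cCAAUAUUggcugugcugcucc

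The hairpins lie in 3 pairs in GRCm38. Mir15a (chr14:61632027-61632110) and Mir16-1 (chr14:61631880-61631972) lie on the minus strand 54 bases apart within the long non-coding RNA gene Dleu2, where Mir15a overlaps no exon and Mir16-1 overlaps exons by 13 bases. Mir15b (chr3:69009772-69009835) and Mir16-2 (chr3:69009902-69009996) lie 66 bases apart on the plus strand in an intron of Smc4, which encodes a subunit of the condensin complex. Mir497 (chr11:70234717-70234800) and Mir195a (chr11:70235042-70235135) lie 241 bases apart on the plus strand, with no same-strand host gene in the annotation, and Mir497 has the miRNA gene Mir497b on the opposite strand.

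The libraries held 7421061 to 14444567 reads, of which 14.97% to 34.5% were assigned to miRNA arms. Arms with reads numbered 763, and 561 were tested. The summed level of 12 hairpins of pluripotent and germ cells (miR-290 and miR-302/367 clusters, all with reads) was 196640 to 224360 reads per 1000000 of all reads (RPM) in E14 mPGCLCs and 93596 to 135180 RPM in E14 non-PGCLC cells. In BG5 it was 53358 to 76281 RPM in mPGCLCs and 8199.6 to 9411.7 RPM in non-PGCLC cells, and in SGET non-PGCLC cells it was 145940 to 161310 RPM. Arms of these hairpins did not all go the same way between the mPGCLC groups. miR-292-5p had 1243596 and 948169 reads in E14 mPGCLCs and 339868 and 268728 in BG5 mPGCLCs. miR-302b-3p had 2029 and 1178 reads in E14 mPGCLCs and 25318 and 26666 in BG5 mPGCLCs. The 4 mesenchymal hairpins (miR-199 and miR-214) summed to 13165 to 22031 RPM in BG5 non-PGCLC cells and to between 19.0 and 1242 RPM in the other groups. Reads were also found for 2 of 4 blood hairpins, for the endothelial Mir126a and for all 5 epithelial hairpins, and their sums are given beside miR-16-5p. In sorted but bulk samples such as these, fewer cells of a type and less RNA per cell cannot be told apart, and the part of cell makeup in the family's values was not tested.

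miR-16-5p was the most abundant member, at a mean of 647 RPM over the 10 libraries, which ranked it 68th of 763 arms. In E14 mPGCLCs it stood at 632 and 611 RPM (621 ± 15.2, SD, n = 2), and in E14 non-PGCLC cells at 267 and 273 RPM (270 ± 4.03). In BG5 mPGCLCs the values were 779 and 625 RPM (702 ± 109), and in BG5 non-PGCLC cells 1086 and 717 RPM (902 ± 261). SGET non-PGCLC cells held 812 and 671 RPM (742 ± 99.4). E14 non-PGCLC cells were thus the lowest group, below every library of the other 4 groups. From E14 mPGCLCs upwards, the order of the means was BG5 mPGCLC, SGET non-PGCLC and BG5 non-PGCLC, and each neighbouring pair in that order overlapped.

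In RPM, the other marker lists were lowest in the same group. The blood hairpins summed to 1.94 to 5.52 RPM in E14 non-PGCLC cells and to 38.0 to 58.5 RPM in E14 mPGCLCs, 12.9 to 18.9 RPM in BG5 mPGCLCs, 7.19 to 82.5 RPM in BG5 non-PGCLC and 59.8 to 79.2 RPM in SGET non-PGCLC cells. Mir126a stood at 12.1 to 48.2 RPM in E14 non-PGCLC cells, and in the same order of the other groups at 58.9 to 65.7, 58.2 to 109, 103 to 110 and 83.4 to 132 RPM. The epithelial hairpins summed to 1114 to 1133 RPM in E14 non-PGCLC cells, and to 1901 to 1984, 3172 to 4337, 1386 to 1399 and 2693 to 3031 RPM in the others. Thus, in RPM, both E14 non-PGCLC libraries lay below the 8 other libraries for all 3 lists, as for miR-16-5p. Per miRNA read this did not hold for Mir126a. Its 3p and 5p arms had 426 and 196 reads among 2304758 miRNA reads in the second E14 non-PGCLC library. In the first E14 mPGCLC library they had 352 and 192 reads among 2850988 miRNA reads. The blood and epithelial lists were not summed per miRNA read, and the part of these cells in the miR-16-5p levels was not tested.

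miR-15b-5p, which shares its transcript with the Mir16-2 hairpin, was second at a mean of 352 RPM (94th of 763) and was much flatter. It stood at 425 and 371 RPM in E14 mPGCLCs and at 307 and 282 RPM in E14 non-PGCLC cells. BG5 mPGCLCs held 356 and 304 RPM and BG5 non-PGCLC cells 433 and 338 RPM. The widest gap between replicates was in SGET non-PGCLC cells, with 239 and 469 RPM, which spanned the whole range of the arm. The group means ran from 294 ± 17.5 RPM in E14 non-PGCLC to 398 ± 38.2 RPM in E14 mPGCLC cells, and every neighbouring pair in the order of means overlapped. Its coefficient of variation over the 10 libraries was 20.7%, the 4th lowest of 163 arms with a mean of at least 100 RPM, whose median was 73.3%. For miR-16-5p it was 37.5%, the 18th lowest.

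**Figure D1:**
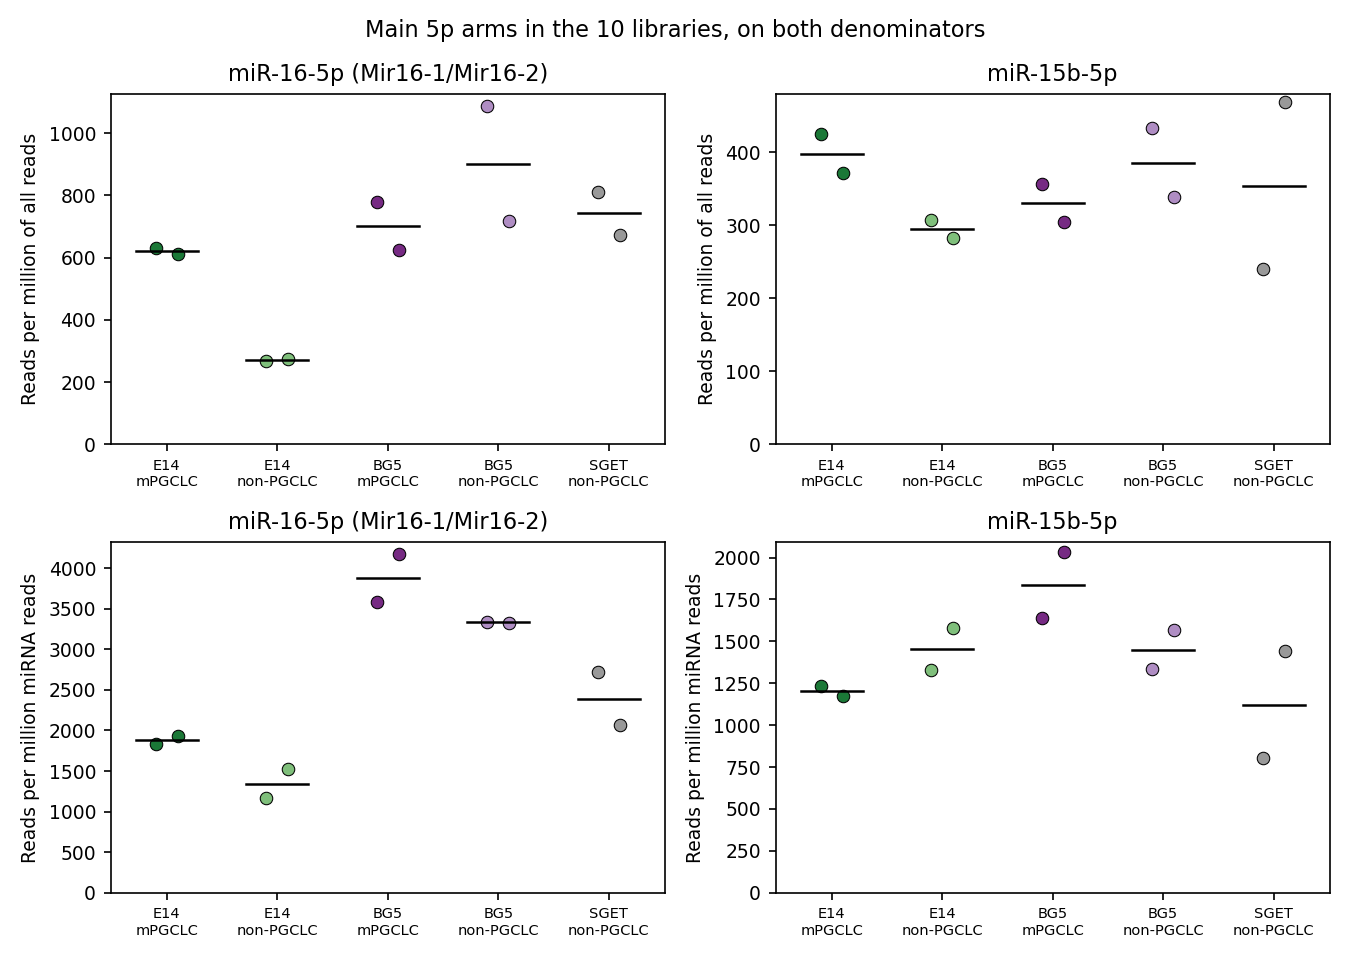
Levels of miR-16-5p (left) and miR-15b-5p (right) in the 10 libraries, per 1000000 of all reads (top) and per 1000000 miRNA reads (bottom), by group. Points are libraries and lines are means of 2 libraries. E14 non-PGCLC libraries, at 267 and 273 RPM, lie below all others for miR-16-5p in the top row, and in the bottom row the BG5 mPGCLC libraries become the highest for both arms.

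Since the miRNA share of a library varied more than 2-fold, both arms were also set against miRNA reads. Per 1000000 miRNA reads, miR-16-5p was 1345 ± 260 in E14 non-PGCLC, 1884 ± 69.2 in E14 mPGCLC, 2393 ± 462 in SGET non-PGCLC, 3335 ± 10.8 in BG5 non-PGCLC and 3880 ± 414 in BG5 mPGCLC cells (SD, n = 2 each). E14 non-PGCLC cells remained lowest on this scale. The BG5 groups, which overlapped in RPM with mPGCLCs 0.778 times the non-PGCLC mean, separated the other way, with mPGCLCs 1.16 times higher. For miR-15b-5p the E14 contrast turned as well, from 1.35 times higher in mPGCLCs in RPM to 0.827 times the non-PGCLC mean per miRNA read. Directions for this arm therefore depended on the denominator.

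To ask whether the family differs between mPGCLCs and the surrounding cells, and between lines, counts of all 561 tested arms were fitted with edgeR's quasi-likelihood test (TMM scaling, Benjamini-Hochberg adjustment, threshold 0.05). None of the 9 members passed in any of the 8 comparisons. Over all tested arms, edgeR called 14.8% for mPGCLC against non-PGCLC as the mean of E14 and BG5, 2.85% in E14, 14.3% in BG5 and 5.70% for the difference between the lines' effects. Between lines it called 15.3% for BG5 against E14 non-PGCLC cells, 4.63% for SGET against E14, 18.7% for SGET against BG5 and 10.2% for BG5 against E14 mPGCLCs. At an unadjusted p under 0.05 there was 1 member, miR-16-5p, in each of 3 comparisons (mean of lines, E14, and SGET against E14 non-PGCLC cells) and 0 in the other 5. Of all tested arms, 23.4%, 11.6% and 12.7% were under that p in these 3 comparisons, and 20.5% in BG5, 14.6% for the difference between the lines' effects, 23.7% for BG5 against E14 non-PGCLC cells, 26.4% for SGET against BG5 and 17.8% between the mPGCLC groups. DESeq2, run as an alternative, called 1 member in 6 comparisons, 2 in BG5 against E14 non-PGCLC cells and 0 between the mPGCLC groups. Over all tested arms DESeq2 called 26.2% for the mean of lines, 9.80% in E14, 21.6% in BG5 and 13.9% for the difference between the lines' effects. Between lines it called 26.6% for BG5 against E14 non-PGCLC cells, 13.7% for SGET against E14, 31.2% for SGET against BG5 and 18.4% for BG5 against E14 mPGCLCs.

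For miR-16-5p the estimates by edgeR were higher in mPGCLCs by 0.69 on the log2 scale as the mean of both lines (SE 0.25, adjusted p = 0.0717), and by 0.42 when libraries were scaled by total reads alone (adjusted p = 0.515). Without SGET in the fit it was 0.78 and passed (adjusted p = 0.0280 by edgeR), and it also passed without the second SGET library alone (adjusted p = 0.0495). In E14 alone the log2 difference was 1.01 (SE 0.35, adjusted p = 0.195 by edgeR), with both mPGCLC libraries above both non-PGCLC libraries and RPM means 2.30-fold apart. With DESeq2 that difference was 0.90 and passed (adjusted p = 0.0426). In BG5 the log2 difference was 0.37 (SE 0.35, adjusted p = 0.619 by edgeR), and it was -0.36 when libraries were scaled by total reads alone. The difference between the lines' effects, BG5 minus E14, was -0.65 (SE 0.49, adjusted p = 0.618 by edgeR), so that a difference between the lines was not shown, and it was -1.56 under total-read scaling (adjusted p = 0.204 by edgeR).

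Among non-PGCLC cells, edgeR put miR-16-5p higher in SGET than in E14 by 0.96 on the log2 scale (SE 0.35, adjusted p = 0.193) and higher in BG5 than in E14 by 0.68 (SE 0.35, adjusted p = 0.256). DESeq2 gave 1.07 and 0.80 for the same contrasts and called both (adjusted p = 0.00601 and 0.0377). Scaling by total reads alone gave 1.46 for SGET against E14 (adjusted p = 0.0784 by edgeR) and 1.74 for BG5 against E14 (adjusted p = 0.00783). The comparisons with E14 non-PGCLC cells share those 2 libraries. Between the mPGCLC groups of BG5 and E14 the log2 difference was 0.03 (SE 0.35, adjusted p = 0.992 by edgeR), with -0.089 to 0.18 when single libraries were left out, and between SGET and BG5 non-PGCLC cells it was 0.28 (SE 0.35, adjusted p = 0.624) and -0.28 under total-read scaling. Leaving out single libraries gave 0.018 to 0.75 for SGET against BG5.

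miR-15b-5p gave log2 estimates of 0.37 for mPGCLCs as the mean of both lines (SE 0.31, adjusted p = 0.556 by edgeR), 0.25 in E14 (SE 0.44, adjusted p = 0.996) and 0.49 in BG5 (SE 0.44, adjusted p = 0.591). With total-read scaling they were 0.11, 0.44 and -0.22, so that the BG5 estimate turned. The E14 estimate of miR-15b-5p ran from 0.0895 to 0.405 when single libraries were left out. Among non-PGCLC cells its largest estimate was -0.64 for BG5 minus E14 (SE 0.44, adjusted p = 0.385 by edgeR), of opposite sign to that of miR-16-5p, and it was 0.39 under total-read scaling.

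**Figure D2:**
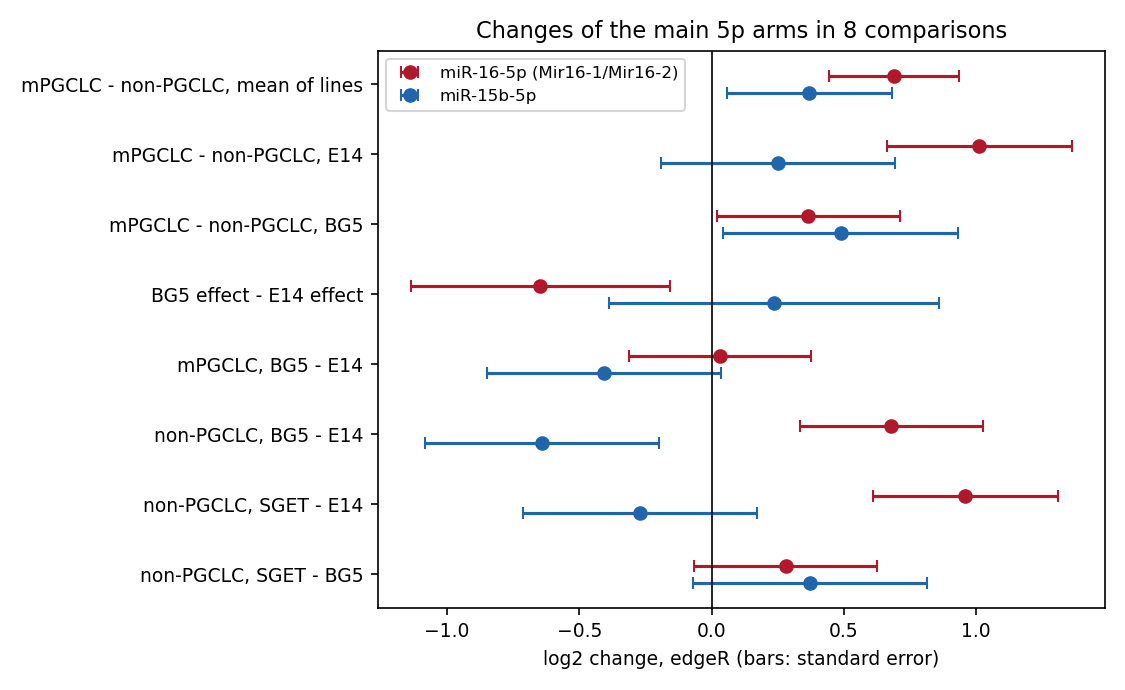
edgeR log2 differences of miR-16-5p and miR-15b-5p in the 8 comparisons, with bars of 1 standard error. No point passed an adjusted p of 0.05. miR-16-5p lay highest in E14 (1.01) and for SGET against E14 non-PGCLC cells (0.96).

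Counted by separation of replicates in RPM, 3 of 9 members (miR-16-5p, miR-15b-5p and miR-16-2-3p) were higher in both E14 mPGCLC than in both E14 non-PGCLC libraries, which 24.8% of all tested arms also were, and 0 were lower (14.4% of all arms). In BG5, 2 of 9 (miR-497a-5p and miR-16-2-3p) were higher in mPGCLCs against a background of 17.3%, and 0 were lower against 35.3%. BG5 non-PGCLC libraries lay above E14 non-PGCLC libraries for 3 members (miR-16-5p, miR-15b-5p and miR-15a-5p; background 39.9%) and below them for 0 (background 12.1%). SGET lay above E14 for 1 (miR-16-5p; background 22.3%) and below for 0 (background 14.1%). SGET lay above BG5 non-PGCLC libraries for 0 members (background 16.8%) and below them for 1 (miR-15a-5p; background 35.3%). BG5 mPGCLC libraries lay above E14 mPGCLC libraries for 0 (background 28.2%) and below them for 2 (miR-15b-5p and miR-195a-5p; background 22.5%).

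Per miRNA read these counts changed. In E14, 2 members (miR-16-5p and miR-16-2-3p) were then higher in both mPGCLC libraries against 13.0% of all tested arms, and 2 (miR-15b-5p and miR-15a-5p) were lower against 26.7%. In BG5, 4 members (miR-16-5p, miR-15b-5p, miR-497a-5p and miR-16-2-3p) were higher in mPGCLCs against 23.7%, and 0 were lower against 29.6%. BG5 lay above E14 non-PGCLC libraries for 2 (miR-16-5p and miR-15a-5p; 36.2% of all arms) and below for 0 (15.5%). SGET lay above E14 for 1 (miR-16-5p; 14.6%) and below for 1 (miR-15b-3p; 22.8%), and it lay above BG5 for 0 (16%) and below for 2 (miR-16-5p and miR-15a-5p; 38.1%). BG5 mPGCLCs lay above E14 mPGCLCs for 5 (miR-16-5p, miR-15b-5p, miR-15a-5p, miR-497a-5p and miR-16-2-3p; 41.9%) and below for 1 (miR-195a-5p; 13.9%). miR-15b-5p thus turned in E14, while miR-16-5p was higher in E14 mPGCLCs on both scales. For miR-497a-5p in BG5 and miR-16-2-3p in E14 the non-PGCLC libraries held no read, so their direction cannot change with the scale.

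miR-15a-5p, from the hairpin beside Mir16-1, was far scarcer than its paralog miR-15b-5p and varied widely within groups. It stood at 9.79 and 8.58 RPM in E14 mPGCLCs and at 14.3 and 6.90 RPM in E14 non-PGCLC cells. In BG5 mPGCLCs the values were 83.02 and 6.94 RPM, and in BG5 non-PGCLC cells 157 and 29.9 RPM. SGET non-PGCLC cells held 13.5 and 0.205 RPM. The highest values were all in BG5 libraries, but a BG5 mPGCLC library was as low as E14, and edgeR gave no call (log2 of BG5 minus E14 non-PGCLC 1.96, SE 2.28, adjusted p = 0.631). The 2 reads of the second SGET library differed by 1 base from a miR-15b sequence with 1331 reads in the same library.

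miR-15b-5p made up 97.7% ± 0.00527 of the miR-15a-5p and miR-15b-5p reads in E14 mPGCLCs and 96.6% ± 1.46 in E14 non-PGCLC cells (SD, n = 2 each). In BG5 the share was 89.4% ± 11.8 in mPGCLCs and 82.6% ± 13.1 in non-PGCLC cells, and in SGET non-PGCLC cells 97.3% ± 3.73. Single libraries ranged from 73.4% to 99.96%, with 95% Wilson intervals at most 2.55 points wide, which cover counting error only. Over E14 and BG5, mPGCLC and non-PGCLC cells did not differ beyond their spread (93.6% against 89.6%, two-sided exact permutation p = 0.457 over 70 arrangements, adjusted p = 0.60 over the 5 shares tested). The difference of 3.98 points was -1.42 without the first BG5 non-PGCLC library and 8.14 without the first BG5 mPGCLC library.

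miR-195a-5p and miR-497a-5p, from the chromosome 11 pair, were at or near 0 in most libraries. miR-195a-5p stood at 6.28 and 8.82 RPM in E14 mPGCLCs, 0 and 28.1 RPM in E14 non-PGCLC cells, 0 and 0.0978 RPM in BG5 mPGCLCs, 0 in both BG5 non-PGCLC libraries, and 15.97 and 0 RPM in SGET non-PGCLC cells. miR-497a-5p had 7.46 RPM in 1 E14 mPGCLC library, 6.06 and 6.45 RPM in the BG5 mPGCLC libraries and 6.94 RPM in 1 SGET non-PGCLC library, and no read in the other 6. A count of 0 allows a level of up to 0.208 to 0.404 RPM, depending on the library, for counting error only. Since reads of these arms came as copies of few sequences, this is no limit on the level in the cells. DESeq2 called these arms in 5 comparisons with log2 values as extreme as -24.65, which rest on groups with no reads and give no size.

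miR-15b-3p, the partner of miR-15b-5p, had reads in all 10 libraries, at 23.3 and 44.5 RPM in E14 mPGCLCs, 32.5 and 18.3 RPM in E14 non-PGCLC cells, 95.02 and 20.2 RPM in BG5 mPGCLCs, 50.0 and 9.90 RPM in BG5 non-PGCLC cells, and 27.8 and 0.102 RPM in SGET non-PGCLC cells. Replicates of the BG5 and SGET groups differed more than 4-fold. miR-195a-3p was found in 2 libraries, 1 of BG5 mPGCLCs (2.15 RPM) and 1 of SGET non-PGCLC cells (5.28 RPM).

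miR-16-2-3p was present in all 4 mPGCLC libraries, at 9.67 and 7.33 RPM in E14 and at 8.73 and 11.7 RPM in BG5. Of the 6 non-PGCLC libraries only 1, from BG5, held it, at 7.93 RPM (75 reads of a single sequence). The pattern was named after its values were seen, and edgeR gave an adjusted p of 0.346 for mPGCLC against non-PGCLC cells as the mean of both lines. miR-16-1-3p was found in 3 libraries, 1 each of E14 mPGCLCs (11.1 RPM, or 6.84 RPM without 34 reads from the hairpin's loop), BG5 mPGCLCs (14.2 RPM) and BG5 non-PGCLC cells (9.42 RPM).

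Because miR-16-5p reads cannot be assigned to a hairpin, the 3p reads are the only ones that separate Mir16-1 from Mir16-2. Mir16-2 gave 100% and 39.9% of these in E14 mPGCLCs, 100% and 45.3% in BG5 mPGCLCs, and 100% and 0% in BG5 non-PGCLC cells. The 39.9% counted the 34 loop reads as 3p reads of Mir16-1, and without them, an alternative chosen after seeing the data, it was 51.8%. The other 4 libraries had no 3p read of either hairpin. The 95% Wilson intervals were 2.75 to 15.6 points wide and cover counting error only, while some of these values rested on copies of a single sequence. The group means could not be separated (71.3% against 50.0%, two-sided exact permutation p = 0.60, 4 against 2 libraries, smallest possible p 0.0667). The difference of 21.3 points rested on single libraries, being -28.7 without the second and 71.3 without the first BG5 non-PGCLC library.

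**Figure D3:**
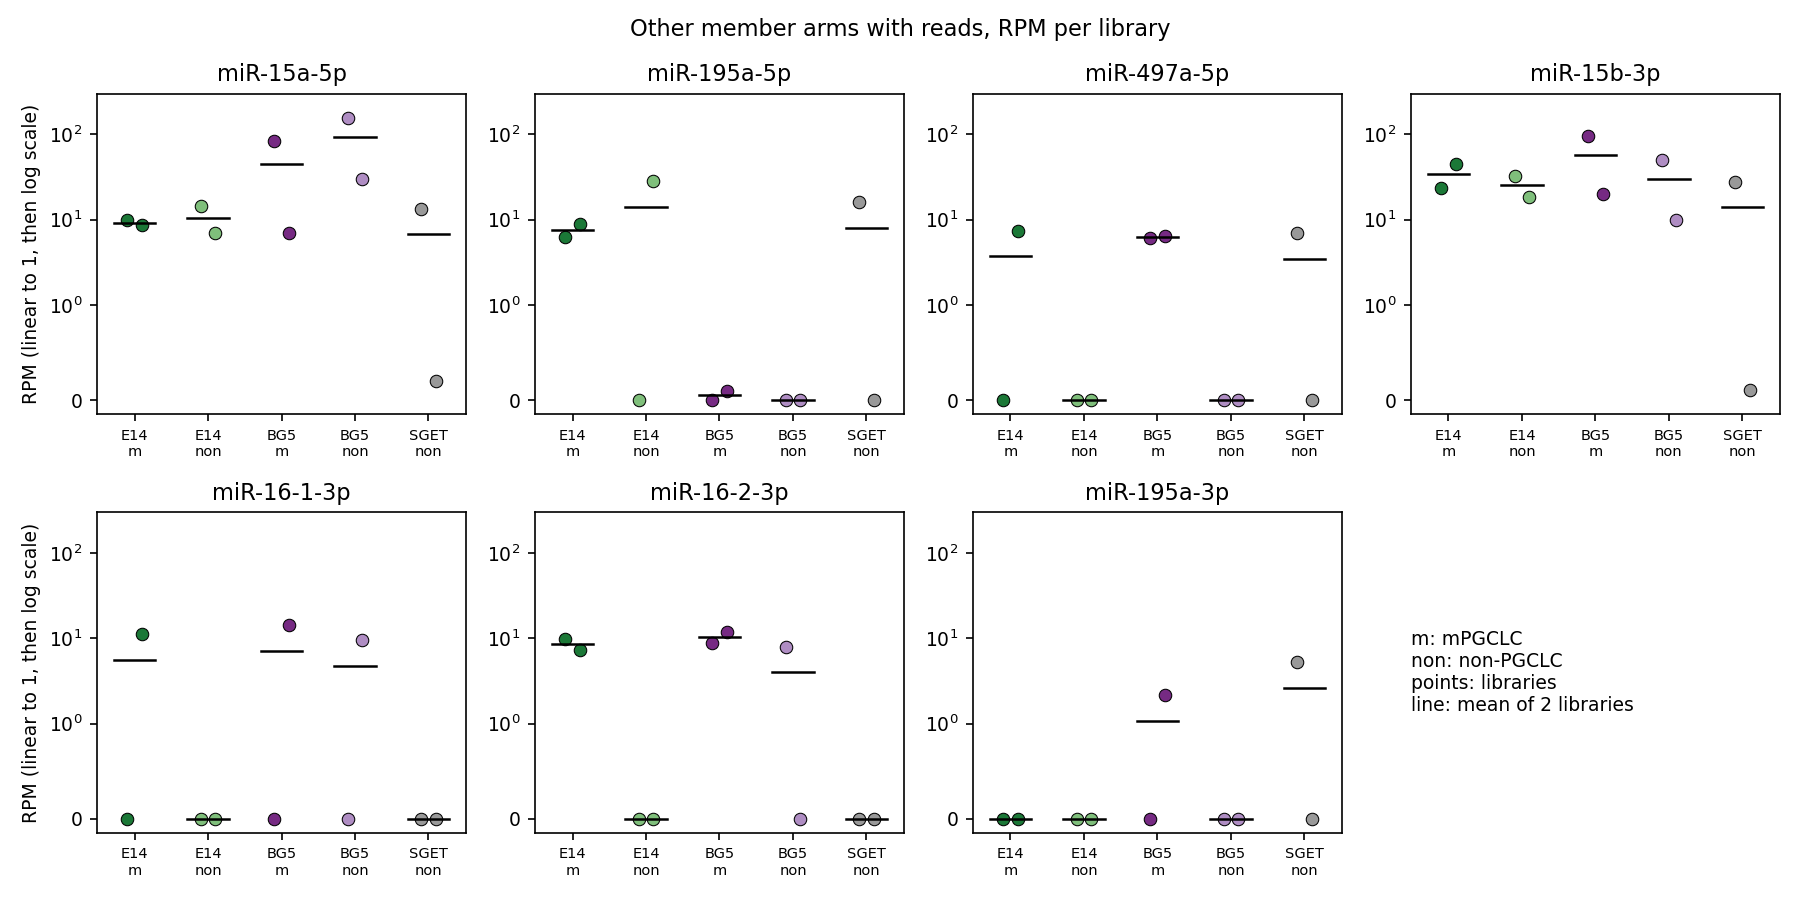
RPM of the 7 scarcer member arms in each library, on an axis that is linear to 1 RPM and logarithmic above. Points are libraries, lines are means of 2 libraries, m stands for mPGCLC and non for non-PGCLC. miR-16-2-3p has reads in all 4 mPGCLC libraries and in 1 of 6 non-PGCLC libraries, while miR-15a-5p and miR-15b-3p fall below 1 RPM only in the second SGET library.

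The values of scarce arms rested on few distinct sequences, and the number of molecules behind them is not known. Among 18 pairs of a scarce arm and a library with a sequence of at least 10 reads, 12 had a single such sequence, with 22 to 229 reads for the top sequence over the 18. Over all member arms, 419 pairs of a sequence and a library had reads. The 160 pairs with at least 10 reads had a median of 140.5 reads and held 99.6% of member reads, and 41.5% of pairs had 1 read. Each library started from a small, fixed number of sorted cells per the study's methods, and the random bases of the adapters were not used to remove PCR copies.

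Together the members made up 608 to 1735 RPM, or 0.270% to 0.662% of miRNA reads. miR-16-5p and miR-15b-5p took 85.5% to 99.97% of the family's reads. Within the 5p arms, miR-16-5p accounted for 59.8% ± 1.25 in E14 mPGCLCs, 45.9% ± 0.587 in E14 non-PGCLC cells, 65.0% ± 1.87 in BG5 mPGCLCs, 65.4% ± 0.919 in BG5 non-PGCLC cells and 66.8% ± 11.2 in SGET non-PGCLC cells (SD, n = 2 each). E14 non-PGCLC cells, at 45.5% and 46.3%, were the only group in which miR-16-5p was not the majority. This share needs no scaling between libraries. Its 95% Wilson interval in a library was at most 2.95 points wide. Over both lines mPGCLC and non-PGCLC cells were not separated (62.4% against 55.7%, two-sided exact permutation p = 0.371, adjusted p = 0.60). The difference of 6.72 points was 3.32 without the first E14 and 10.2 without the second BG5 non-PGCLC library. Arranged within lines, the p was 0.222 by exact permutation, where the smallest possible is 0.0556.

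Other miRNAs with the same seed can add to the same pool. RefSeq lists miR-322-5p, miR-195b, miR-6342, miR-6353 and miR-6419, and of these reads were assigned to miR-322-5p.
miR-322-5p: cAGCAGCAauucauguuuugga
It stood at 28.9 and 7.83 RPM in E14 mPGCLCs, 10.6 and 99.2 RPM in E14 non-PGCLC cells, 35.8 and 10.7 RPM in BG5 mPGCLCs, 205 and 221 RPM in BG5 non-PGCLC cells, and 8.61 and 0 RPM in SGET non-PGCLC cells. In BG5 non-PGCLC cells it made up 10.9% and 16.9% of all reads with the seed, and in the other libraries between 0% and 14.4%. edgeR did not call it in any comparison, with the lowest adjusted p at 0.112 for SGET against BG5 non-PGCLC cells.

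**Figure D4:**
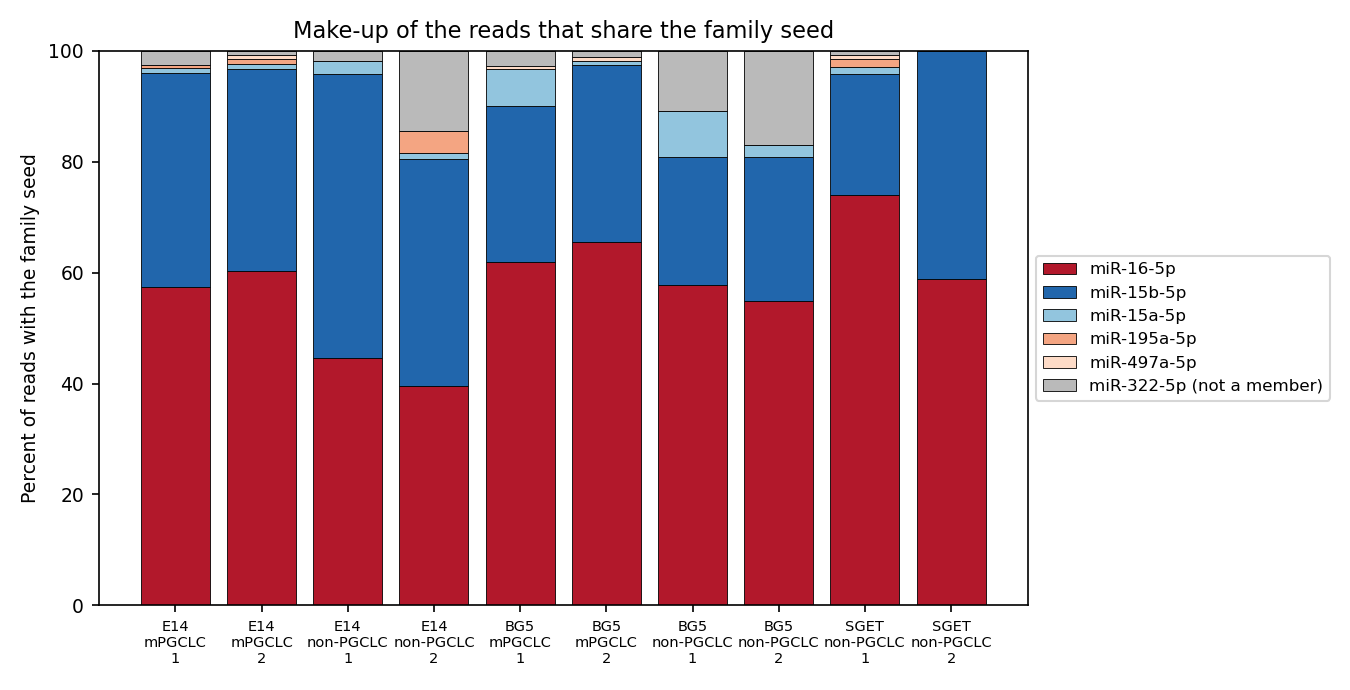
Percent of the reads with the family seed that came from each 5p arm, for the 10 libraries. miR-16-5p and miR-15b-5p fill most of each bar. miR-322-5p, not a member, reaches 16.9% in a BG5 non-PGCLC library, and miR-15a-5p reaches 8.35% in the other BG5 non-PGCLC library.

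The ends of the mature RNAs were next examined. The forms shown are those that made up the main arms or differed between libraries, in DNA letters as in the files, with capitals marking bases that the hairpin does not hold.
miR-16-5p, 22 nt: tagcagcacgtaaatattggcg
miR-16-5p, 21 nt: tagcagcacgtaaatattggc
miR-16-5p, 23 nt: tagcagcacgtaaatattggcgt
miR-16-5p, 23 nt with added A: tagcagcacgtaaatattggcgA
miR-15b-5p, 22 nt: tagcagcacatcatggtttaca
miR-15b-5p, 21 nt: tagcagcacatcatggtttac
miR-15b-5p, 23 nt with added A: tagcagcacatcatggtttacaA
miR-15a-5p, 22 nt: tagcagcacataatggtttgtg
miR-15a-5p, 24 nt: tagcagcacataatggtttgtgga
miR-15a-5p, 22 nt, shifted start: gtagcagcacataatggtttgt

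The 22-nt form, which equals the RefSeq sequence, made up 82.6% of all miR-16-5p reads, and the 21-nt form 5.89%. Both had at least 10 reads in each of the 10 libraries. The 23-nt form that follows the hairpin held 3.25% and that with an added A 2.93%. For miR-15b-5p the 22-nt form made up 71.2% and the 21-nt form 25.4%, with reads summed over libraries. Libraries differed in this, since in the first E14 non-PGCLC library reads of 21 nt made up 3.74% of miR-15b-5p and 8.01% of miR-16-5p. The 5′ end, which sets the seed, was at the annotated base in 96.6% to 100% of miR-16-5p reads and in 94.5% to 100% of miR-15b-5p reads in every library.

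Reads of 22 nt made up 74.7% ± 5.69 of miR-16-5p in E14 mPGCLCs, 80.2% ± 0.819 in E14 non-PGCLC cells, 85.1% ± 5.63 in BG5 mPGCLCs, 85.7% ± 1.08 in BG5 non-PGCLC cells and 87.9% ± 7.73 in SGET non-PGCLC cells (SD, n = 2 each). mPGCLC and non-PGCLC cells of E14 and BG5 differed by -3.06 points (two-sided exact permutation p = 0.543, adjusted p = 0.60), by 0.00079 points without the second E14 mPGCLC library, by -6.11 without the second BG5 mPGCLC library and by -6.33 with exact matches alone. Reads with a base near the 3′ end that the hairpin does not hold made up 6.60% ± 0.682, 14.2% ± 3.88, 4.75% ± 5.60, 2.92% ± 0.649 and 4.94% ± 4.53 of miR-16-5p in the same order of groups. The difference between the cell types was -2.90 points (two-sided exact permutation p = 0.486, adjusted p = 0.60), with single libraries from 0.783% to 17.0%. It was -0.10 without the second E14 non-PGCLC library, -1.27 without the second BG5 mPGCLC library, and -4.63 and -4.94 without the first and the second BG5 non-PGCLC library. In the first E14 non-PGCLC library 11.2% of reads were outside 20 to 24 nt, against 0% to 1.01% in the others.

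The miR-15b-5p form with an added A was found in all 4 mPGCLC libraries, with 193 and 139 reads in E14 and 73 and 32 reads in BG5. Of the 6 non-PGCLC libraries it had 227 reads in 1 of E14, 1 read in 1 of BG5 and none in the other 4. It was picked after its counts were seen and was not tested. The 24-nt miR-15a-5p form was the most frequent form of that arm, at 41.8% of its reads, but these came from 4 libraries, with 1014 reads in 1 BG5 non-PGCLC library, 147 in 1 BG5 mPGCLC library, 95 in 1 SGET library and 87 in 1 E14 non-PGCLC library. The form that starts 1 base earlier, and so carries another seed, had 235 reads, all in that same BG5 mPGCLC library, where it made up 34.3% of the arm.

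**Figure D5:**
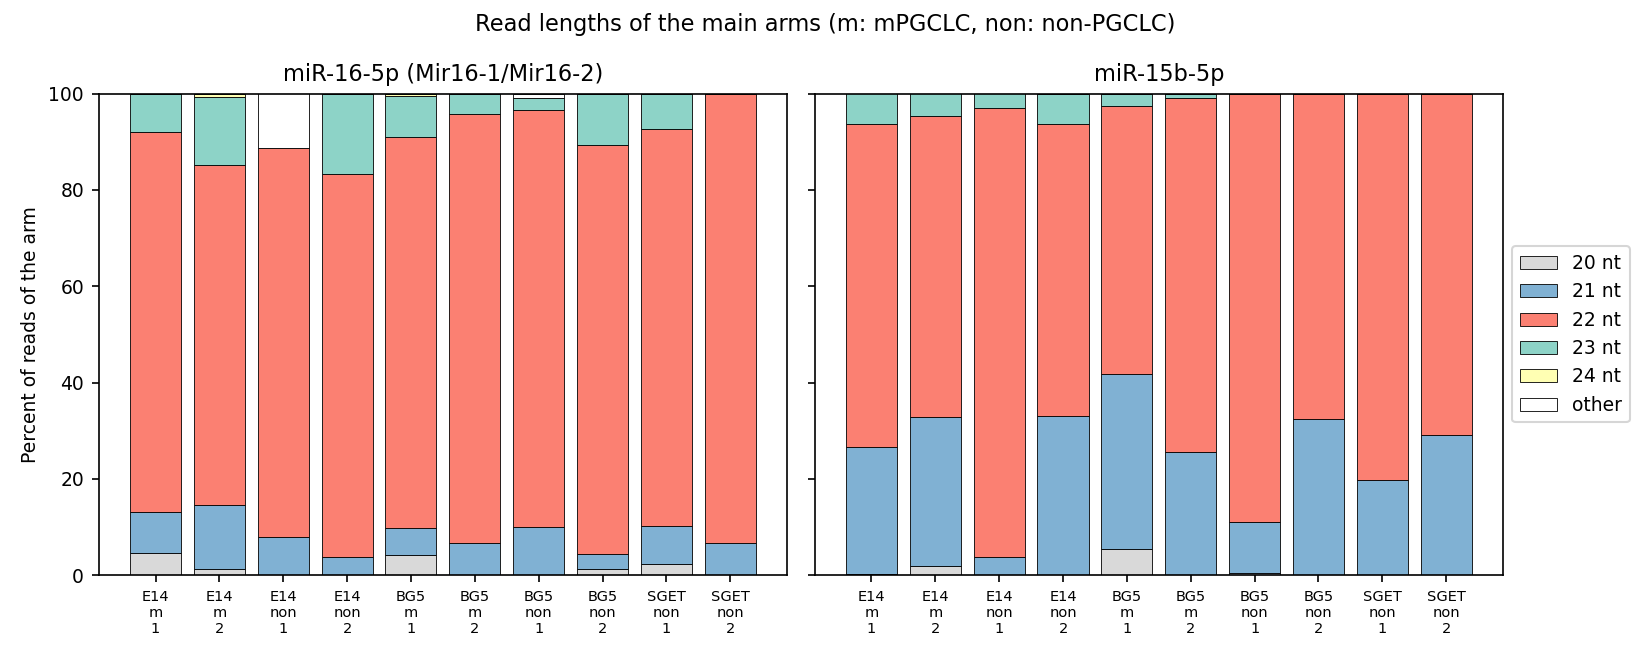
Percent of miR-16-5p reads (left) and miR-15b-5p reads (right) of each length in the 10 libraries. The 22-nt class is the largest in every bar. Reads of 21 nt take 3.14% to 13.2% of miR-16-5p and 3.74% to 36.2% of miR-15b-5p, and replicates of a group differ.

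For context, a list of 10 other miRNAs known to act on proliferation or on the G1 to S step (5p arms of Mir322, Mir503, Mir34a, Mir34b, Mir34c, Mir449a, Mir17, Mir20a, Mir93 and Mir106b) was read in the same fits. Of these 8 were tested, and Mir34b and Mir449a had no 5p reads. For mPGCLC against non-PGCLC cells as the mean of lines, edgeR called 1 higher and 1 lower, beside 7.66% and 7.13% of all arms, with a median log2 difference of 0.50 in the list and 0.14 over all 561 arms. The higher one was miR-93-5p, a seed relative of miR-17 from the miR-106b cluster, at 3713 ± 47.6 and 1957 ± 475 RPM in E14 and 2664 ± 824 and 1564 ± 576 RPM in BG5, mPGCLC before non-PGCLC cells (log2 1.11, SE 0.18, adjusted p = 0.000166 by edgeR). The lower one was miR-503-5p, which is transcribed with miR-322 and is related to the miR-16 family, at 38.3 ± 7.91 and 164 ± 9.33 RPM in E14 and 37.3 ± 7.06 and 614 ± 14.8 RPM in BG5 (log2 -2.80, SE 0.51, adjusted p = 0.000593 by edgeR). Estimates of the list went both ways, so its median gives no single direction. Without passing, miR-17-5p, miR-20a-5p, miR-106b-5p and miR-34a-5p were positive (0.51, 0.49, 1.05 and 1.04). miR-322-5p and miR-34c-5p were negative (-2.24 and -1.58) and did not pass either.

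In E14 alone 0 of the 8 passed in edgeR and in BG5 alone the same 2 arms, miR-93-5p and miR-503-5p, passed (log2 1.48 and -3.31, adjusted p = 0.000306 and 0.00361 by edgeR). Total-read scaling lost the BG5 call of miR-93-5p (log2 0.77, adjusted p = 0.219), and that of miR-503-5p was lost without the first BG5 mPGCLC library (log2 -2.90, adjusted p = 0.123 by edgeR) or the second BG5 non-PGCLC library (log2 -2.96, adjusted p = 0.0668). In these fits the library left alone in its group is taken to vary like the other groups. Neither of the 2 differed between the lines' effects by edgeR's test of the difference itself (adjusted p = 0.343 for miR-93-5p and 0.730 for miR-503-5p). Among non-PGCLC cells, miR-93-5p was lower in BG5 than in E14 (log2 -1.38, SE 0.25, adjusted p = 0.000699 by edgeR), while the scaling by total reads gave -0.32 and no call. miR-503-5p was lower in SGET than in E14 (log2 -2.71, SE 0.72, adjusted p = 0.0359 by edgeR), a call lost under 8 of 16 alternatives. Among those were fits without either SGET or either BG5 non-PGCLC library or the second E14 non-PGCLC library, with log2 values of -2.57 to -2.73 and adjusted p of 0.0668 to 0.124 by edgeR. In SGET against BG5 non-PGCLC cells miR-93-5p was higher (log2 1.16, adjusted p = 0.00240 by edgeR, but 0.58 and 0.317 with total-read scaling, and 1.43 and 0.0655 when only these groups were fitted) and miR-503-5p lower (log2 -3.62, adjusted p = 0.00155). The other 6 tested arms of the list, like the members, passed in none of the 8 comparisons.

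The arms whose log2(RPM + 1) followed miR-16-5p most closely over the 10 libraries, among 370 arms with a mean of at least 10 RPM, were miR-26b-5p (Pearson's r = 0.940), miR-324-3p (r = 0.901) and miR-26a-5p (r = 0.891). For miR-15b-5p they were miR-744-5p (r = 0.796), miR-17-5p (r = 0.687) and miR-532-3p (r = 0.670). The r of miR-324-3p and miR-532-3p included libraries with hardly any reads of them. miR-324-3p had 0 and 1 reads in the E14 non-PGCLC libraries, and miR-532-3p had 0 in the first E14 and the first SGET non-PGCLC library. miR-16-5p and miR-15b-5p followed each other less, at r = 0.380. These values describe 10 libraries that share groups and, through RPM, a denominator that also holds reads other than miRNAs.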

How the data were processed

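The deposited files list each distinct read sequence of a library with its raw count. To make them the authors used cutadapt 3.2 for adapters and the 4 random bases beside them, then STAR 2.5.3a on GRCm38 (tools and versions from the submitters' processing notes). PCR copies therefore remain. Here, reads of 18 to 26 nt were assigned to the sense strand of 1174 GENCODE vM21 hairpins (first 18 nt exact, up to 2 later mismatches), split at the middle of the hairpin into arms, and arms were merged where over 50% of their reads were shared. RPM is per 1000000 of all reads in a file. Samples were grouped by the labels. Counts of arms that passed filterByExpr were tested with edgeR 4.0.16 in R 4.3.3 (quasi-likelihood, TMM, 5 group means, Benjamini-Hochberg over 561 arms, threshold 0.05). The test was run on simulated counts with changes larger than the estimates of miR-16-5p and miR-15b-5p, which does not give its power for these. DESeq2 1.42.0, other scalings, filters and matches, a replicate block, fits on fewer groups and fits without each library were alternatives. The 5 shares were compared by two-sided exact permutation of 4 against 4 libraries (70 arrangements, smallest p 0.0286), or 4 against 2 for the Mir16-2 share. Libraries held 7421061 to 14444567 reads, and 3 reads set the floor. Same-numbered replicates did not deviate together (r = -0.0454 in E14 and -0.00886 in BG5 over 561 arms), so numbers were not taken as pairs. These values do not exclude that same-numbered mPGCLC and non-PGCLC samples came from the same embryoid bodies, which the permutations of the shares would then ignore.

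Named were every member arm, tested arms with the family seed, a fixed list of cell cycle miRNAs and the 3 arms most like each main arm. Members and lists were chosen with earlier results of these data known. Mir292a of the marker list is named Mir292 in this annotation. The study's methods give 2 instrument types, and the part of each library from either was not known here.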

Additional observations from a re-analysis of the deposited data

Results flagged for a closer look

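Reads of 43 nt, the longest in the files and outside the 18 to 26-nt window used for arms, matched the Mir16-1 hairpin exactly from base 38 to base 80, counted from the hairpin's 5′ end. They begin at the base after the last base of miR-16-5p (bases 16 to 37) and run through the loop and miR-16-1-3p (bases 58 to 79). There were 5 of them in the first and 7 in the second BG5 non-PGCLC library, above the 3 reads that a count of 0 allows for counting error only, and 2 each in 1 BG5 mPGCLC and 1 SGET non-PGCLC library. Since PCR copies were kept, the reads of a library may be copies of 1 molecule. No comparison used these reads, and which form of the precursor they come from was not tested.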

How the results depend on the processing

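Of 128 recounts of the members called (16 alternatives in each of 8 comparisons), 118 gave 0, as reported. The exceptions were 1 member under DESeq2 for the mean of lines, E14, BG5, the interaction, SGET against E14 and SGET against BG5, 2 under DESeq2 and 1 under total-read scaling for BG5 against E14 non-PGCLC cells, and 1 for the mean of lines when only the groups compared were fitted (miR-16-5p, 0.78, adjusted p = 0.0280 by edgeR). Of all arms, DESeq2 called 9.80% to 31.2% in those 7 comparisons, total-read scaling 16.8% for BG5 against E14 and the fit of only the groups compared 18.1%. Leaving out single libraries gave 0 to 1 for the mean of lines, the 1 being miR-16-5p without the second SGET library (adjusted p = 0.0495; 15.4% of all arms called), and 0 elsewhere. Adjusted p of miR-16-5p ranged over alternatives from 0.0280 to 0.515 for the mean of lines and from 0.0426 to 0.712 in E14.

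Total-read scaling shifted the median log2 of all arms by -0.85 (interaction) to 0.997 (BG5 against E14 non-PGCLC). It turned miR-16-5p in BG5 (-0.36) and in SGET against BG5 (-0.28), and miR-15b-5p in BG5 (-0.22), the interaction (-0.66), and BG5 against E14 (0.39), SGET against E14 (0.27) and SGET against BG5 (-0.12) non-PGCLC cells. Leaving out single libraries moved miR-16-5p between the mPGCLC groups from -0.089 to 0.18 and miR-15b-5p in SGET against E14 from -0.55 to 0.061.

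With single libraries left out, the shares (mPGCLC minus non-PGCLC, in points) ran from -1.42 (without the first BG5 non-PGCLC library) to 8.14 for miR-15b, from -28.7 to 71.3 for Mir16-2 (without the second and the first BG5 non-PGCLC library), from 3.32 (without the first E14 non-PGCLC library) to 10.2 (without the second BG5 non-PGCLC library) for miR-16-5p among 5p reads, from -4.94 (without the second BG5 non-PGCLC library) to -0.10 (without the second E14 non-PGCLC library) for 3′ mismatches, and from -6.11 to 0.00079 (without the second E14 mPGCLC library) for 22-nt reads. Several alternatives of the shares could not reach 0.05 (smallest p 0.0556 within lines and 0.0667 for Mir16-2). With the replicate number as a block, edgeR called 0 members in all 8 comparisons, and sign flips of 4 pairs gave p from 0.125, the smallest they allow (miR-15b share, 3.98 points), to 0.375, by exact permutation. Same-numbered samples were not taken as pairs, although a shared origin of theirs is not excluded. The Mir16-2 share had too few pairs for a block. Group levels moved beyond 1 SD in 4 of 45 cases with exact matches and 1 of 45 with reads of 20 to 24 nt. Per miRNA read 35 of 45 moved, but that is another unit, which by itself moves any level above 0, so this count is no check. How many molecules lie behind the reads is not known, so depth in reads does not set what a 0 allows. The causes were not tested.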

Other observations

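In 1 E14 mPGCLC library, 34 of the 89 reads counted as miR-16-1-3p were a 20-nt read at bases 38 to 57 of the Mir16-1 hairpin, which is the loop between miR-16-5p and miR-16-1-3p. It is shown because the arm is otherwise so scarce, in DNA letters as in the file.
Mir16-1 loop read: ttaagattctgaaattacct
It starts at the same base as the 43-nt reads of that hairpin. Without it, the difference in the Mir16-2 share between mPGCLC and non-PGCLC cells was 24.3 points in place of 21.3, an alternative chosen after seeing the data.

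The second SGET non-PGCLC library held the fewest distinct sequences (155870) and 99.97% of its family reads came from miR-16-5p and miR-15b-5p, with 2 reads of miR-15a-5p, 1 of miR-15b-3p and none of the other 5 scarce arms.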
